A study of Mus musculus with 21 samples.

Results

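The 6 genes described here, Ttr, Folr1, Kl, Clic6, Aqp1 and Slc4a5, are genes of the choroid plexus, and they were followed mouse by mouse in RNA-seq of mouse midbrain. They were taken by their gene symbol from both count tables, which hold 33829 and 55385 genes, and all 6 had enough counts to be tested in each. Ttr stood at 2.06 to 13.0 FPKM (fragments scaled to gene length in kilobases and to library size) in 8 of 9 mice of the first experiment and at 1168 FPKM in the other, which was 90.1-fold above the next mouse. In the second experiment the level ran from 18.2 to 1156 FPKM over 12 mice. The other 5 genes were highest in the same mice as Ttr. Of the 6 genes, 0 passed the test of a difference between treatment groups in any comparison, where 0.00456% to 0.132% of all tested genes passed.

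The samples were midbrain of 21 male C57BL/6 mice, labelled as 6 weeks old, in 7 groups of 3. MPTP is a toxin that damages dopaminergic neurons of the midbrain and is used as a mouse model of Parkinson's disease, and irisin is a hormone cleaved from the muscle protein FNDC5. The pre-treatment experiment held a control group given water for 10 days, a group given water for 5 days and then MPTP at 30 mg/kg per day for 5 days, and a group given irisin at 200 µg/kg per day for 5 days before the same MPTP course. The delayed treatment experiment held a control group on water, a group given water and then irisin alone, a group given MPTP and then water, and a group given MPTP and then irisin, with the same doses and 5 days for each agent. The study's methods describe nigral tissue dissected by hand after perfusion. Libraries held 66.7 to 75.6 M (mega) counts over all genes in the first of these experiments, and 48.8 to 77.2 M in the second.

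The choroid plexus is a folded tissue that hangs in the ventricles of the brain, where a single layer of epithelial cells around capillaries secretes cerebrospinal fluid. Ttr encodes transthyretin, which carries thyroid hormone and retinol-binding protein and is among the most abundant proteins that this epithelium secretes. Folr1 encodes folate receptor alpha, which takes folate across the epithelium, and Kl encodes klotho, a co-receptor for the hormone FGF23 that is also shed into the fluid. Aqp1 is a water channel and Slc4a5 a sodium bicarbonate cotransporter, both of the face of the cell that meets the fluid. Clic6 is a chloride intracellular channel protein. The midbrain and its dopaminergic neurons are not known as a site of high expression of these genes. In bulk samples such as these, fewer cells of a type and less RNA per cell cannot be told apart.

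The 250 bases before the gene start that RefSeq gives were taken from its promoters (GRCm38.p6) where these were given. This was so for 3 of the 5 genes beside Ttr, namely Kl at chr5:150952357-150952606, Aqp1 at chr6:55336049-55336298 and Slc4a5 at chr6:83237125-83237374. RefSeq's start is not the one in the count tables for Aqp1, whose window ends before the tables' start without reaching it, nor for Slc4a5, whose window lies inside the span that the tables give the gene. All 3 are on the plus strand and written 5′ to 3′, in lower case throughout because neither motif searched was found:
Kl: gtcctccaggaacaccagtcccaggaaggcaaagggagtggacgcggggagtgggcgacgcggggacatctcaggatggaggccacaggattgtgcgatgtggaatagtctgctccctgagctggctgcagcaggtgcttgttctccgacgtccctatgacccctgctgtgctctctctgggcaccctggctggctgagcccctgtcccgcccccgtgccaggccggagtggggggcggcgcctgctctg
Aqp1: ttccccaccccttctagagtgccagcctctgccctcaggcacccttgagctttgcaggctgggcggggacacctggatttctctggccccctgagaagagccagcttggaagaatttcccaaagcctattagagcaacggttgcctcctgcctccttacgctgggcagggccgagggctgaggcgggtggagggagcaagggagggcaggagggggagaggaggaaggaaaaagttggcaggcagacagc
Slc4a5: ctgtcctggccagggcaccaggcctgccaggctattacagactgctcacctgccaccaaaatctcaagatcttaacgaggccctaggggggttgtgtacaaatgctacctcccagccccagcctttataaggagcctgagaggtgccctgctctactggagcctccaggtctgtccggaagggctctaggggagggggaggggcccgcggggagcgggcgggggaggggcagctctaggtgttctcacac
TAATCC, the core bound by OTX homeodomain proteins (GGATTA on the other strand), occurred in 0 of the 3 windows and in 6.25% of 32851 promoters of the same length. ATTGG, the CCAAT box read on the other strand, also occurred in 0 of the 3, against 33.8% of all promoters. The GC content of the windows was 66.8% for Kl, 62% for Aqp1 and 62.8% for Slc4a5, against a median of 52.4% over all promoters.

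In the coordinates of the deposited tables, which follow the GRCm38 build, Ttr lies on the plus strand of chromosome 18 from 20665280 to 20674321 and Folr1 on the minus strand of chromosome 7 from 101858331 to 101870788. Kl lies on chromosome 5 from 150952607 to 150993817 and Clic6 on chromosome 16 from 92485736 to 92541243, both on the plus strand. Aqp1 and Slc4a5 lie on the plus strand of chromosome 6, from 55336432 to 55348555 and from 83219828 to 83304944. All 6 are protein-coding genes, and the values cover the exons of the whole gene. Folr1 overlaps Anapc15 on the opposite strand, and the use of strand in counting is not given in the sources used here. Anapc15 stood at 2.05 FPKM in the mouse highest in Ttr and at 2.03 to 4.31 FPKM in the other 8 mice of that experiment, and thus did not share the rise of Folr1. Clic6 overlaps the transcript 2410124H12Rik on the same strand, which did not pass 0.167 FPKM in any mouse.

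The spread of Ttr lay largely within groups. In the pre-treatment experiment, Ttr stood at 2.15, 5.28 and 4.64 FPKM in controls (replicates 1, 2 and 3, in that order here and below), 2.63, 1168 and 3.73 FPKM with MPTP and 2.06, 4.85 and 13.0 FPKM with irisin before MPTP. MPTP replicate 2 alone was high, and without it the 3 groups overlapped at a low level. In the delayed treatment experiment, Ttr stood at 1049, 941 and 156 FPKM in controls, 34.0, 41.4 and 200 FPKM with irisin alone, 18.2, 55.6 and 1088 FPKM with MPTP and 114, 1156 and 399 FPKM with MPTP and then irisin. The high mice here were 2 controls, 1 mouse given MPTP and 1 given MPTP and then irisin, with no high mouse among those given irisin alone.

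By group mean, Ttr in the delayed treatment experiment was highest in controls, at 715 ± 487 FPKM (SD, n = 3), then with MPTP and irisin, at 556 ± 539 FPKM, then with MPTP, at 387 ± 607 FPKM, and lowest with irisin alone, at 91.7 ± 93.6 FPKM. Every pair of neighbours in that order overlapped. Pre-treatment means were 4.02 ± 1.66 FPKM in controls, 391 ± 672 FPKM with MPTP and 6.62 ± 5.66 FPKM with irisin before MPTP (SD, n = 3 each), and these groups overlapped as well.

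**Figure D1:**
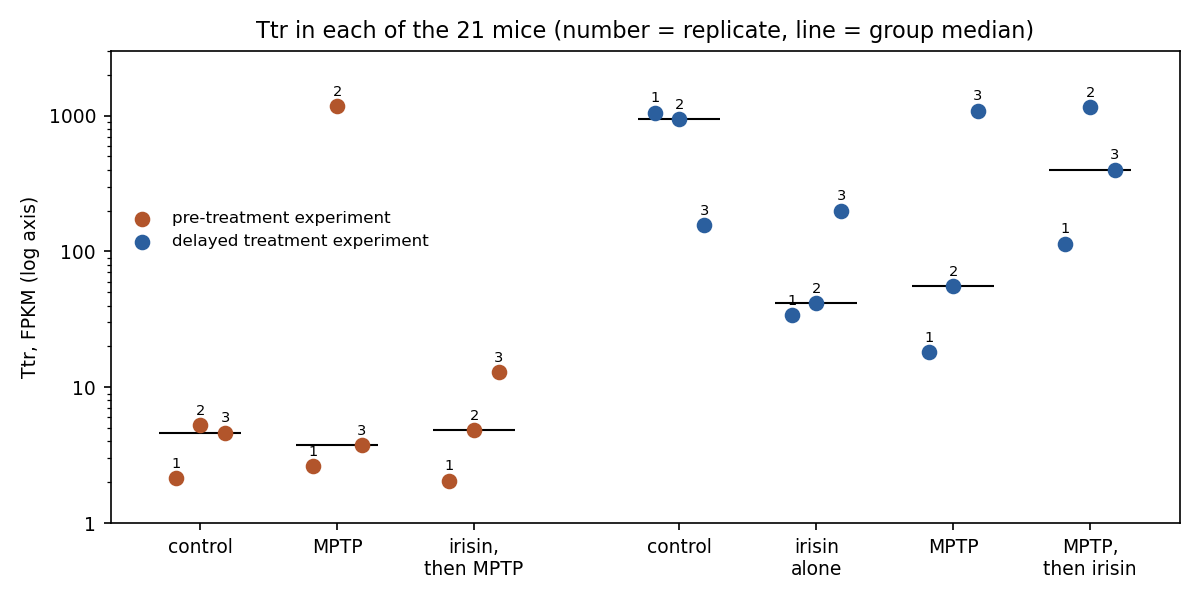
Deposited FPKM of Ttr (log axis) in each of the 21 mice, by group, with the pre-treatment experiment on the left and the delayed treatment experiment on the right. Each point is 1 mouse, the number is its replicate and the line is the group median. MPTP replicate 2 of the pre-treatment experiment sits at 1168 FPKM, above the other 8 mice at 2.06 to 13.0 FPKM, while the 12 mice of the delayed treatment experiment spread from 18.2 to 1156 FPKM.

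In counts, Ttr had 107431 reads in MPTP replicate 2 of the pre-treatment experiment, which was 0.156% of that library and made it the gene with rank 32 by count. The lowest mouse of that experiment had 192 reads. In the 4 highest mice of the delayed treatment experiment, Ttr ranked between 40 and 61 and took 0.125 to 0.154% of the counts, so that 5 of the 21 libraries held a like share. In those 5 libraries Ttr supplied 93.4 to 94.0% of the reads of the 6 genes together.

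Folr1, the folate receptor, had few counts in most mice. Among pre-treatment mice, Folr1 stood at 0.183, 0.0593 and 0.164 FPKM in controls, 0.139, 3.32 and 0.0547 FPKM with MPTP and 0.170, 0.173 and 0.259 FPKM with irisin before MPTP. Delayed treatment mice had 2.93, 2.91 and 0.659 FPKM as controls, 0.296, 0.408 and 0.598 FPKM with irisin alone, 0.176, 0.261 and 3.31 FPKM with MPTP and 0.472, 2.83 and 0.977 FPKM with MPTP and then irisin. MPTP replicate 2 of the first experiment was 12.8-fold above the next mouse, and the 4 mice highest in Ttr were also the 4 highest in Folr1.

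Kl, the klotho gene, was the steadiest of the 6 in the 8 low mice of the pre-treatment experiment. Pre-treatment mice had 0.294, 0.314 and 0.338 FPKM as controls, 0.283, 4.37 and 0.260 FPKM with MPTP and 0.314, 0.284 and 0.353 FPKM with irisin before MPTP. Delayed treatment levels were 4.15, 3.80 and 1.13 FPKM in controls, 0.687, 0.523 and 1.17 FPKM with irisin alone, 0.780, 0.704 and 4.41 FPKM with MPTP and 1.05, 4.97 and 1.71 FPKM with MPTP and then irisin. The 8 low mice of the first experiment lay within 0.260 to 0.353 FPKM, and MPTP replicate 2 was 12.4-fold above the highest of them.

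Clic6, the chloride intracellular channel protein, had the highest level of the 5 genes beside Ttr in every high mouse. Its pre-treatment levels were 0.758, 0.586 and 0.672 FPKM in controls, 0.906, 6.91 and 0.648 FPKM with MPTP and 0.737, 0.974 and 0.860 FPKM with irisin before MPTP. The delayed treatment values were 6.06, 5.68 and 1.66 FPKM in controls, 1.39, 0.863 and 1.62 FPKM with irisin alone, 0.923, 0.844 and 6.85 FPKM with MPTP and 1.84, 6.84 and 2.72 FPKM with MPTP and then irisin. MPTP replicate 2 of the first experiment was 7.10-fold above the next mouse.

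Aqp1, the water channel, varied least in the delayed treatment experiment, where its highest mouse was 5.37-fold above its lowest. Pre-treatment levels of Aqp1 were 0.302, 0.188 and 0.105 FPKM in controls, 0.189, 1.998 and 0.201 FPKM with MPTP and 0.0637, 0.254 and 0.140 FPKM with irisin before MPTP. With delayed treatment, Aqp1 stood at 2.04, 1.79 and 0.949 FPKM in controls, 0.453, 0.649 and 1.46 FPKM with irisin alone, 0.857, 0.533 and 2.33 FPKM with MPTP and 0.523, 2.43 and 1.46 FPKM with MPTP and then irisin. The same 5 mice were the highest, although irisin replicate 3 and MPTP and irisin replicate 3 came close to them in the second experiment.

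Slc4a5, the bicarbonate cotransporter, was the lowest of the 6 in the high mice. Pre-treatment mice stood at 0.0426, 0.301 and 0.0699 FPKM in controls, 0.0808, 1.41 and 0.146 FPKM with MPTP and 0.290, 0.0993 and 0.0771 FPKM with irisin before MPTP. In the delayed treatment mice the levels were 1.60, 1.17 and 0.338 FPKM in controls, 0.150, 0.233 and 0.291 FPKM with irisin alone, 0.342, 0.218 and 1.54 FPKM with MPTP and 0.169, 1.91 and 0.895 FPKM with MPTP and then irisin. MPTP replicate 2 of the first experiment was 4.68-fold above the next mouse, the smallest such gap of the 6 genes.

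The 2 experiments differed in the low end of these genes. All 12 mice of the delayed treatment experiment were above the 8 low mice of the pre-treatment experiment for Ttr, Kl and Aqp1, while the ranges overlapped for Folr1, Clic6 and Slc4a5. The gene lengths implied by the FPKM values agreed between the tables, with ratios of 0.983 to 0.998 for the 6 genes. The tables were normalized separately and the experiments shared no mice, so these levels stand side by side without a test.

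The first question of the design was whether MPTP changed these genes, in each experiment. In the pre-treatment experiment, the log2 fold change of MPTP against control was 6.57 (SE 2.21) for Ttr, and its Benjamini-Hochberg adjusted p over 22641 genes was 0.818 in the quasi-likelihood test of edgeR. Of the 6 genes, 0 passed an adjusted p of 0.05, against 0.0221% of all genes, and 4 had an unadjusted p under 0.05, as did 6.03% of all genes. Folr1, Kl, Clic6, Aqp1 and Slc4a5 had log2 fold changes of 3.06 (SE 1.29), 2.35 (SE 0.96), 2.05 (SE 0.78), 1.97 (SE 0.95) and 1.93 (SE 1.15). All of these rested on MPTP replicate 2. Without that mouse, the log2 fold change was -0.34 for Ttr, -0.48 for Folr1, -0.21 for Kl, -0.0345 for Aqp1 and -0.30 for Slc4a5, and 0.21 for Clic6. In the delayed treatment experiment, the log2 fold change of MPTP against control was -0.91 (SE 1.35) for Ttr (edgeR, Benjamini-Hochberg adjusted p = 0.920), and from -0.82 to -0.38 for the other 5 genes. Again 0 of the 6 passed, against 0.132% of all genes, and 0 had an unadjusted p under 0.05, against 8.33% of all genes. These sizes turned on MPTP replicate 3, the 1 high mouse of its group. It was picked by its level and the high controls stayed in, so the values without it are no test of MPTP. Without it, the log2 fold change was -4.30 for Ttr, -3.30 for Folr1, -2.05 for Kl, -2.36 for Clic6, -1.22 for Aqp1 and -1.92 for Slc4a5. Then 4 of the 6 had an unadjusted p under 0.05, against 7.02% of all genes, and 0 passed in edgeR, where the smallest Benjamini-Hochberg adjusted p was 0.470. The median over the 6 genes was 2.20 in the first experiment and -0.65 in the second, beside -0.00182 and -0.00126 over all tested genes. The estimates for the 6 genes thus had opposite signs in the experiments, and the difference between the experiments was not tested.

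The second question was whether irisin changed them. Irisin before MPTP against MPTP gave a log2 fold change of -5.87 (SE 2.14) for Ttr, and its Benjamini-Hochberg adjusted p was 0.713 in the quasi-likelihood test of edgeR. The other 5 genes ranged from -2.49 to -1.70. Of the 6 genes, 0 passed, against 0.0707% of all genes, and 3 had an unadjusted p under 0.05, as did 6.22% of all genes. This comparison shares the MPTP mice with the one before, and without MPTP replicate 2 the log2 fold change was 1.04 for Ttr, 1.05 for Folr1, 0.21 for Kl, 0.14 for Clic6 and 0.45 for Slc4a5, and -0.35 for Aqp1.

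Irisin alone against control, in the delayed treatment experiment, gave log2 fold changes of -2.97 (SE 1.44) for Ttr and -2.31 (SE 1.06) for Folr1, with Benjamini-Hochberg adjusted p of 0.567 and 0.554 in edgeR's quasi-likelihood test. For Kl, Clic6, Aqp1 and Slc4a5 the log2 fold changes were -1.94 (SE 0.81), -1.80 (SE 0.83), -0.90 (SE 0.66) and -2.21 (SE 0.92). Here too 0 of the 6 passed in edgeR's test, against 0.109% of all genes, and 2, Kl and Slc4a5, had an unadjusted p under 0.05, as did 8.97% of all genes. Folr1, Clic6 and Slc4a5 were lower in each mouse given irisin than in each control, a separation of the groups that 15.1% of all tested genes showed in 1 direction or the other. Control replicates 1 and 2 are among the 4 mice highest in Ttr. Those 4 mice were then left out, a choice made after the data were seen that leaves 1 control. The log2 fold change was then -0.78 for Ttr, -0.62 for Folr1, -0.53 for Kl, -0.38 for Clic6, -0.16 for Aqp1 and -0.61 for Slc4a5. For Ttr, other differences did not shrink so. The same exclusion gave Ttr -2.11 for MPTP against control, 2.80 for irisin after MPTP against MPTP and 3.58 for the interaction tested below. This did not hold for every gene, since MPTP against control shrank to -0.31 for Slc4a5. The interaction was then 2.33 for Folr1, 1.43 for Kl, 1.75 for Clic6, 0.68 for Aqp1 and 1.55 for Slc4a5.

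Irisin after MPTP against MPTP gave 0.54 (SE 1.34) on the log2 scale for Ttr and 0.21 to 0.52 for the other 5 genes, and 0 of the 6 passed edgeR's test, against 0.00456% of all genes, with 0 at an unadjusted p under 0.05, against 3.90% of all genes. Without MPTP replicate 3 the value for Ttr was 3.93, with 4 of the 6 at an unadjusted p under 0.05, against 3.68% of all genes, and each adjusted p in edgeR was 1. Without MPTP and irisin replicate 2 it was -0.59. Whether irisin acted differently with and without MPTP was tested as an interaction, which was 3.50 (SE 1.94) on the log2 scale for Ttr, with an adjusted p of 0.916 in edgeR's test. None of the 6 passed it, that is 0 against 0.0411% of all genes, with 0 at an unadjusted p under 0.05, against 5.57% of all genes. This too turned on MPTP replicate 3. That mouse was picked by its level, so the counts without it in this paragraph are no test of the groups. Without that mouse the interaction was 6.89 for Ttr, and above 0 for the other 5 genes as well. All 6 then had an unadjusted p under 0.05, against 4.93% of all genes, while 0 passed and the smallest Benjamini-Hochberg adjusted p in edgeR was 0.462. A test of any difference among the groups of an experiment also called 0 of the 6 in edgeR, against 0.0928% of all genes in the pre-treatment and 0.100% in the delayed treatment experiment, with 3 and 0 of the 6 at an unadjusted p under 0.05, against 6.70% and 6.83% of all genes. Without MPTP replicate 3 of the delayed treatment experiment, 5 of the 6 had an unadjusted p under 0.05 among its groups, against 5.86% of all genes, and 0 passed. limma called 0 of the 6 as well in each of these comparisons, and DESeq2 called 0 of those it tested, which left out Ttr, Folr1 and Kl in the pre-treatment experiment, where it gave no adjusted p.

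**Figure D2:**
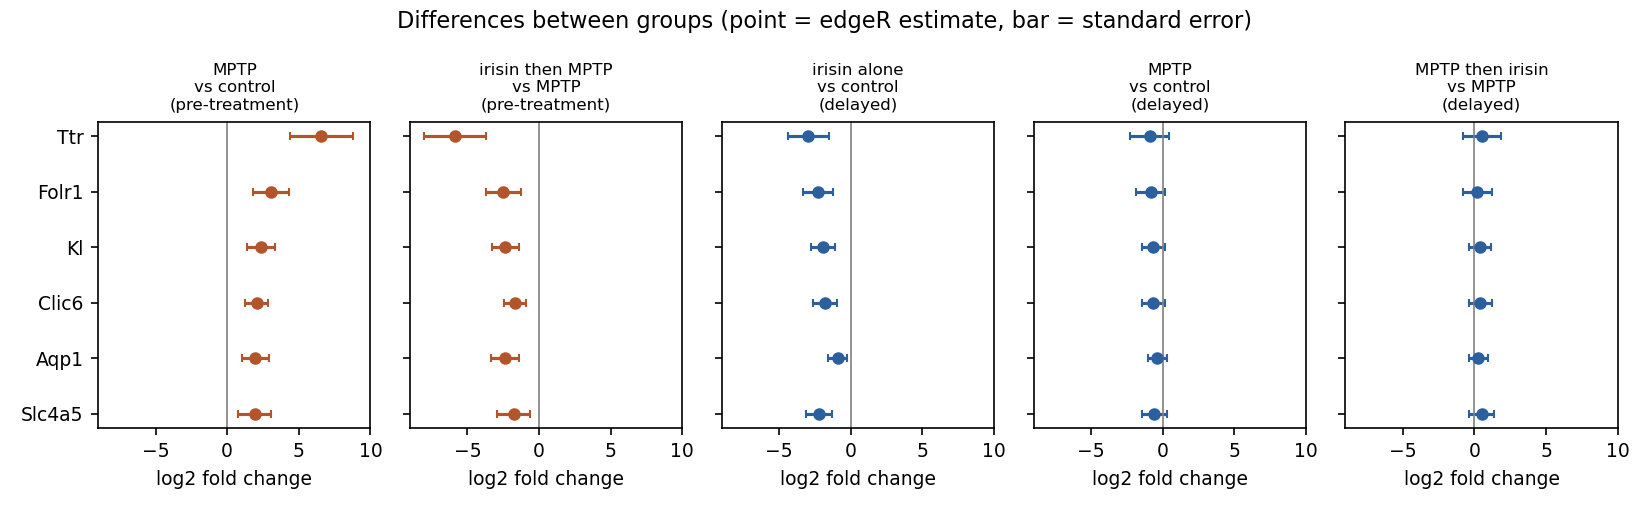
Log2 fold change of each of the 6 genes in the 5 comparisons of groups, as estimated by edgeR from 3 mice per group. The point is the estimate and the bar its standard error. The pre-treatment estimates for Ttr reach 6.57 and -5.87 with standard errors of 2.21 and 2.14. In each panel 0 of the 6 genes passed an adjusted p of 0.05, against 0.00456% to 0.132% of all tested genes.

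Mice of 1 group spread widely in these genes. The biological coefficient of variation that edgeR fitted to Ttr was 1.28 in the pre-treatment and 1.02 in the delayed treatment experiment, which placed it at percentiles 97.5 and 94.0 of all tested genes. The other 5 genes lay at percentiles 87.1 to 94.4 in the first experiment and 83.3 to 90.4 in the second.

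Each of the other 5 genes rose with Ttr across the 12 mice of the delayed treatment experiment. On log2 CPM (counts scaled to library size), Pearson's r with Ttr was 0.975 for Folr1 (two-sided permutation p = 1e-05, the smallest that 100000 resamples can give), 0.952 for Kl (p = 2e-05), 0.951 for Clic6 (p = 2e-05), 0.883 for Aqp1 (p = 0.00051) and 0.885 for Slc4a5 (p = 0.00039). Spearman's rho was 0.930, 0.951, 0.909, 0.895 and 0.846 in the same order, with permutation p of 5e-05, 2e-05, 0.00015, 0.00015 and 0.00087. These are 5 of 10 relations computed over both experiments, the p-values are unadjusted, and the genes were chosen with results of these data known. Without the 2 mice farthest from the median of Ttr, r was 0.965, 0.979, 0.948, 0.941 and 0.946. The relation also held within groups, with r of 0.970, 0.943, 0.927, 0.880 and 0.866 for deviations from the group means (exact permutation within groups, p = 0.000772 to 0.00617).

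MPTP replicate 2 of the pre-treatment experiment stood apart by a gap of 71.3% of the whole range of Ttr, so no r over all 9 mice is given. Over the other 8 mice r with Ttr was 0.133 for Folr1, 0.532 for Kl, 0.0663 for Clic6, 0.00469 for Aqp1 and -0.0462 for Slc4a5 (exact permutation p = 0.177 to 0.991), and rho was -0.0238, 0.405, -0.0238, 0.0476 and 0.0714 (exact permutation p = 0.327 to 0.977). These mice had 11 to 50 counts of Folr1, 14 to 60 of Aqp1, 19 to 141 of Slc4a5, 180 to 316 of Clic6 and 207 to 269 of Kl.

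How much each gene rose for a given rise of Ttr was of similar size in both experiments. For the pre-treatment experiment, the excess of MPTP replicate 2 over the median of the other 8 mice was taken per 1000 FPKM of excess Ttr, and in the delayed treatment experiment the slope of a straight line over the 12 mice was used. Clic6 had an excess of 5.30 FPKM per 1000 FPKM of Ttr in the first and a slope of 5.21 in the second, with a range of 5.09 to 5.29 when each mouse was left out in turn. Kl had an excess of 3.49 and a slope of 3.59 (3.47 to 3.64), and Folr1 had 2.71 and 2.64 (2.54 to 2.80). For Aqp1 the values were 1.56 and 1.45 (1.41 to 1.51), and for Slc4a5 1.13 and 1.35 (1.27 to 1.41). The order of the 5 genes was the same in both, and the excess of Kl and Folr1 in the single mouse fell within the range of the slope, while that of Clic6, Aqp1 and Slc4a5 fell outside it.

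**Figure D3:**
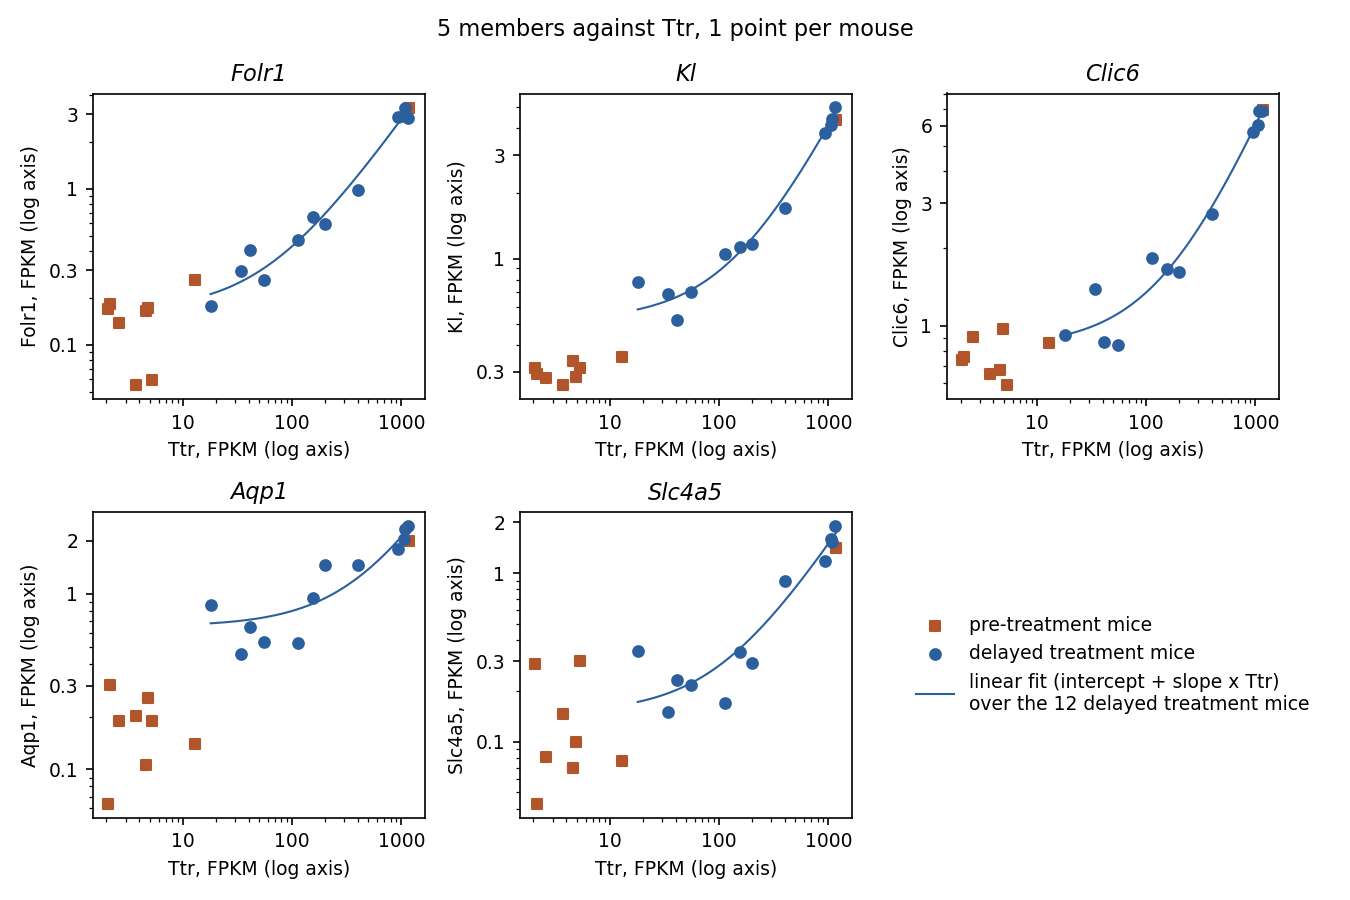
FPKM of Folr1, Kl, Clic6, Aqp1 and Slc4a5 against FPKM of Ttr in the same mouse (log axes), with squares for the 9 pre-treatment and circles for the 12 delayed treatment mice. The curve is the linear fit over the 12 delayed treatment mice, which bends on log axes, and the single high pre-treatment mouse, at 1168 FPKM of Ttr, lies beside the 4 high delayed treatment mice in each panel.

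The line over the 12 mice had an R-squared of 0.978 for Folr1, 0.992 for Kl, 0.989 for Clic6, 0.889 for Aqp1 and 0.954 for Slc4a5. Its intercept, the level where Ttr would be 0, was 0.164 FPKM for Folr1, 0.518 for Kl, 0.828 for Clic6, 0.653 for Aqp1 and 0.148 for Slc4a5. The medians of the 8 low pre-treatment mice were 0.167, 0.304, 0.747, 0.189 and 0.0900 FPKM in the same order, so that the largest difference between the experiments was that of Aqp1.

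A list of 33 other genes of the choroid plexus was followed in the same way. In MPTP replicate 2 of the pre-treatment experiment, 20 of 32 tested list genes were at least 2-fold above each of the other 8 mice, as were 5 of the 5 genes beside Ttr, against 0.539% of all tested genes. Likewise 20 of 33 list genes in the delayed treatment experiment had their 4 highest values in the 4 mice highest in Ttr, as did 5 of the 5 genes beside Ttr, against 0.593% of all tested genes. In the 5 comparisons of groups edgeR called 0 of the list genes, against 0.00456% to 0.132% of all tested genes. Pre-treatment, 7 of 32 had an unadjusted p under 0.05 for MPTP against control and 9 of 32 for irisin before MPTP, against 6.03% and 6.22% of all tested genes, with median log2 fold changes over the list of 0.89 and -0.82, beside 2.20 and -2.35 for the 6 genes. With delayed treatment, 7 of 33 had an unadjusted p under 0.05 for irisin alone, 1 for MPTP against control and 1 for irisin after MPTP, against 8.97%, 8.33% and 3.90% of all tested genes. The medians over the list there were -0.92, -0.35 and 0.04, beside -2.07, -0.65 and 0.41 for the 6 genes.

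The 6 list genes of highest mean FPKM over the 21 mice followed Ttr unevenly. Enpp2, which encodes autotaxin and is also made by oligodendrocytes, stood at 139.7 FPKM in MPTP replicate 2 against 44.6 to 65.1 FPKM in the other 8 mice, and at 119 to 153 FPKM in the 4 high delayed treatment mice against 58.3 to 79.7 FPKM in the other 8. Ace, the angiotensin-converting enzyme, stood at 7.77 FPKM against 3.55 to 5.98 FPKM, and at 10.4 to 10.8 FPKM against 7.03 to 8.43 FPKM. Slc29a4, a monoamine transporter, stood at 8.71 FPKM against 4.84 to 5.61 FPKM in the first experiment, and at 11.3 to 14.6 FPKM against 8.56 to 11.9 FPKM in the second, where the mice overlapped. Igfbp2, a binding protein of insulin-like growth factors, reached 15.9 FPKM against 8.79 to 15.2 FPKM in the first experiment and separated the mice in the second, at 26.02 to 32.6 FPKM against 10.95 to 23.9 FPKM. Igf2 and Car14, a growth factor and a carbonic anhydrase, overlapped in both experiments. In the high pre-treatment mouse Igf2 was at 12.04 FPKM within 3.37 to 13.2 FPKM, and Car14 at 19.0 FPKM within 12.8 to 19.99 FPKM.

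The genes whose pattern was most like that of Ttr were found by Pearson's r of log2 CPM over the mice of each experiment, ranked by the lower of the 2 values over 21153 genes. The 10 genes beside the 6 with the highest value were Kcne2, Tmem72, F5, Prr32, 1500015O10Rik, Car12, Kcnj13, Enpp2, Sostdc1 and Trpv4, with a lower r between 0.871 and 0.937, and 9 of the 10 were on the list of choroid plexus genes. Among them Kcne2 and Kcnj13 are potassium channel subunits, Trpv4 is a cation channel and Car12 a carbonic anhydrase. By the same measure Kl ranked 1, Clic6 2, Folr1 7, Aqp1 15 and Slc4a5 29. The median lower r was 0.708 over 32 list genes and -0.220 over all genes. The pre-treatment values of r rest on MPTP replicate 2, and all points of an experiment share its libraries and depth.

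Kcne2 stood at 8.74 FPKM in MPTP replicate 2 against 0.112 to 0.271 FPKM in the other 8 pre-treatment mice, and at 3.94 to 5.36 FPKM in the 4 high delayed treatment mice against 0.187 to 1.52 FPKM in the other 8. Its rise per Ttr was larger in the first experiment, with an excess of 7.36 FPKM and a slope of 4.62 FPKM per 1000 FPKM of Ttr. Enpp2 gave 76.4 and 74.1 FPKM, and 1500015O10Rik, a secreted peptide precursor, gave 15.6 and 12.5 FPKM.

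**Figure D4:**
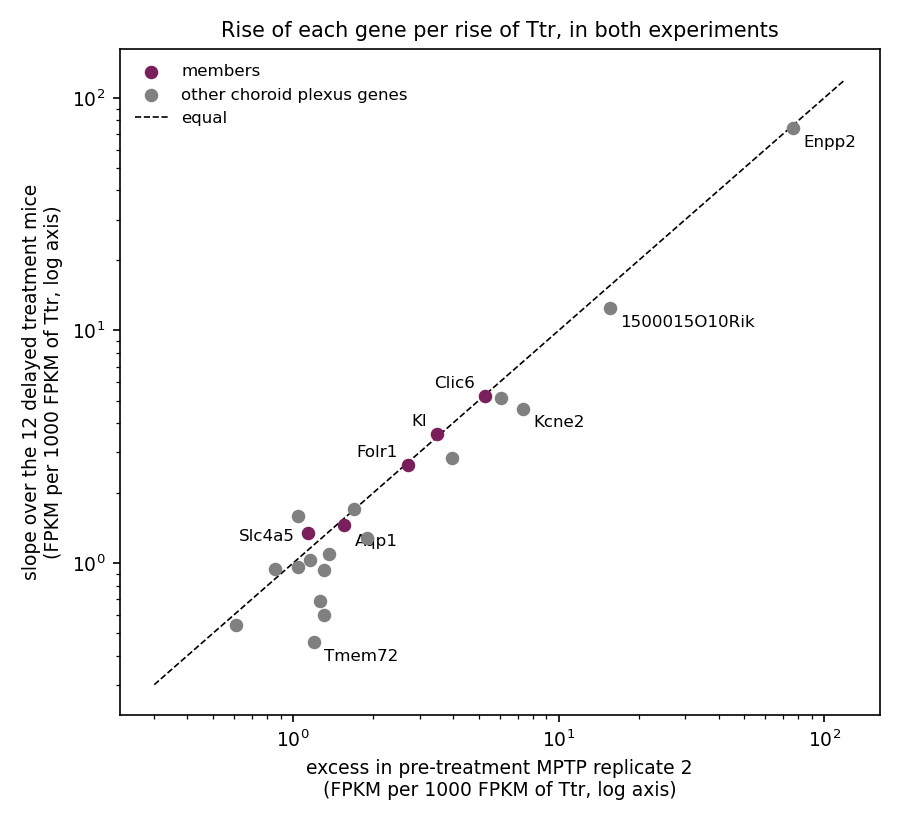
Rise of each gene per 1000 FPKM of rise in Ttr (log axes), with the excess in MPTP replicate 2 of the pre-treatment experiment on the x axis and the slope over the 12 delayed treatment mice on the y axis. Shown are the 5 genes beside Ttr and the list genes that were at least 2-fold higher in that mouse and highest in the 4 high mice of the other experiment, with a dashed line where both are equal. Clic6 lies at 5.30 and 5.21 and Enpp2 at 76.4 and 74.1, near the line, while Kcne2 lies under it, at 7.36 and 4.62.

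Markers of other cells and regions were taken from lists of the same kind. None of the tested markers of ependymal cells, meningeal fibroblasts, red blood cells, hippocampus, thalamus or striatum was 2-fold higher in MPTP replicate 2, or highest in the same 4 delayed treatment mice. The summed level of 8 ependymal genes, which mark the cells that line the ventricles, was 34.9 FPKM in MPTP replicate 2 against 13.8 to 33.7 FPKM in the other 8 mice, and 23.7 to 33.9 FPKM against 20.8 to 32.5 FPKM in the delayed treatment mice. Foxj1, the regulator of motile cilia in those cells, was at 6.69 FPKM in that mouse, within the 4.60 to 7.07 FPKM of the others. The sum of 10 meningeal genes was 16.7 FPKM against 14.0 to 22.0 FPKM, and in the delayed treatment mice 29.2 to 37.1 FPKM against 17.8 to 43.3 FPKM. Both lists thus overlapped between high and other mice, apart from the ependymal sum of the single pre-treatment mouse, which was just above the others.

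Some markers of other regions lay outside the range of the other mice in MPTP replicate 2 of the pre-treatment experiment. A sum of 4 hippocampal genes stayed within it, at 8.74 FPKM against 7.81 to 9.41 FPKM in the other 8 mice. Of the markers outside the range, not all were so in the high delayed treatment mice. The sum of 3 thalamic genes was 5.29 FPKM in MPTP replicate 2 against 10.5 to 24.1 FPKM in the other 8 mice, and Tcf7l2, a transcription factor of thalamic neurons, was at 1.91 FPKM against 5.80 to 15.04 FPKM. In the 4 high delayed treatment mice the thalamic sum, at 9.88 to 12.03 FPKM, and Tcf7l2, at 4.42 to 5.78 FPKM, lay within the 8.28 to 26.4 FPKM and 2.62 to 9.85 FPKM of the other 8. The sum of 5 striatal genes was 18.7 FPKM against 12.7 to 16.6 FPKM, and 27.8 to 33.6 FPKM in the 4 high delayed treatment mice against 19.0 to 23.9 FPKM in the other 8. The striatal sum thus lay above that of the other mice in both experiments, as no other sum of these marker lists did. The sum of 9 genes of dopaminergic neurons was 188 FPKM in MPTP replicate 2 against 112 to 175 FPKM in the other 8 mice, and 1 of the 9, Pitx3, was at least 2-fold above each of them. In the delayed treatment experiment that sum overlapped, at 121 to 164 FPKM in the 4 high mice against 105 to 161 FPKM in the other 8. Th, the rate-limiting enzyme of dopamine synthesis, was present in all 21 mice, at 7.89 to 20.9 FPKM in the 8 low pre-treatment mice and at 19.6 FPKM in MPTP replicate 2, so that this marker of the labelled tissue was not absent from any of them. Slc18a2, the vesicular monoamine transporter, was at 29.2 FPKM in that mouse against 11.2 to 20.2 FPKM. In the 4 high delayed treatment mice Slc18a2 was at 10.5 to 14.6 FPKM against 6.93 to 14.2 FPKM. Of the same list, Ddc was also above the other 8 mice in MPTP replicate 2, at 28.9 FPKM against 9.54 to 20.8 FPKM. Slc6a3 was not, at 17.1 FPKM within 6.65 to 27.3 FPKM. The sum of 5 red blood cell genes was 981 FPKM in MPTP replicate 2 against 272 to 960 FPKM, and overlapped in the delayed treatment mice, at 450.1 to 1027 FPKM against 367 to 713 FPKM. The part of these other tissues in the levels of the 6 genes was not tested, nor was the share of choroid plexus in each dissected piece.

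**Figure D5:**
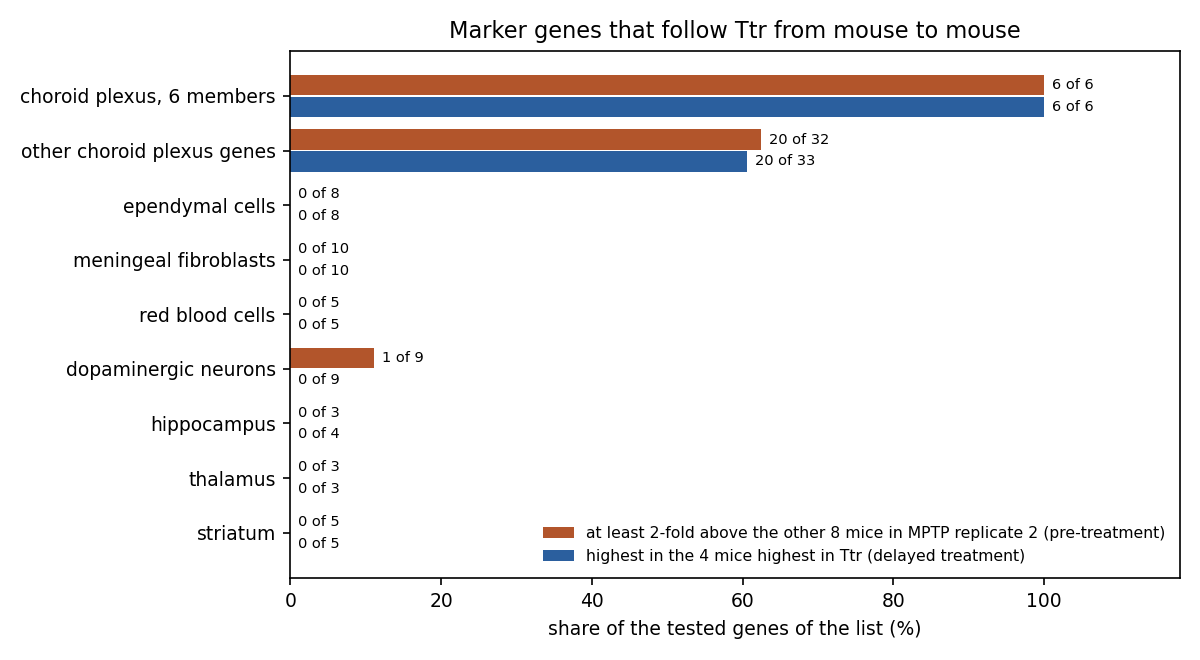
Share of the tested genes of each marker list (%) that were at least 2-fold above the other 8 mice in MPTP replicate 2 of the pre-treatment experiment, or that had their 4 highest values in the 4 mice highest in Ttr of the delayed treatment experiment. The numbers give how many of how many. For the 6 genes the bars include Ttr itself, 20 of 32 and 20 of 33 other choroid plexus genes followed it, and in the other lists 0 genes did apart from 1 of 9 dopaminergic genes in the first experiment. The shares over all tested genes were 0.539% and 0.593%, and the other lists are short.

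MPTP replicate 2 also stood apart in the number of genes that were at least 2-fold above each of the other 8 mice. This was 122 of 22641 tested genes against 16 to 41 in each of the other mice. It did not stand apart in genes more than 2-fold below the others, with 250 against 184 to 289. At least 10-fold above were 10 genes, against at most 2 in any other mouse. Of these 10, 8 were members of the 6 or of the list, namely Ttr, Kl, Folr1, Tmem72, Kcne2, F5, Cldn2 and Mfrp. Ttr is the gene by which the mouse was picked.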

How the data were processed

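RNA-seq of mouse midbrain was analysed for 21 samples, taken as 1 mouse each and grouped by the sample labels. The labels number the replicates only, so p-values measure the spread between these samples. Gene-level read counts came from featureCounts per the study's methods, and the authors deposited them as raw counts, together with FPKM values. Submitters' notes list HISAT, StringTie, edgeR and the build mm9, but gene ends in the deposited tables matched GENCODE M21 (GRCm38) for 92.2% and 87.1% of the shared genes. A count of 0 is written as 0 FPKM in the pre-treatment table and as 0.0001 in the other.

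Counts were tested in edgeR 4.0.16 (R 4.3.3) with the quasi-likelihood test, TMM scaling and filterByExpr (count of at least 10), which left 22641 and 21922 genes, fitted per experiment over all its groups. Adjustment was by Benjamini-Hochberg over the genes tested, and calls were made under 0.05. The code was first tested on simulated data. Relations with Ttr used log2 CPM (prior count 2) and permutation of mice, exact under 10 mice. Alternatives were another scaling, other filters, only the compared groups, a block for the replicate number, DESeq2 1.42.0, limma 3.58.1 on log2(FPKM + 1), and leaving out mice. With totals of 48.8 to 77.2 M (mega) counts, depth limited mainly the genes with few counts.

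The 6 genes, the marker lists and the rule for naming genes were chosen with earlier results of these data known. Named were the 6 genes, the 6 list genes of highest mean FPKM and the 10 genes most like Ttr. Other genes and samples were named after their values were seen, as were the 4 mice highest in Ttr. Within groups, no pair of samples had counts as close as sampling noise, with a smallest chi-square of 39.7 per gene over 21 pairs. GO and KEGG annotation columns were not used here.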

Additional observations from a re-analysis of the deposited data

How the results depend on the processing

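The number of the 6 genes called stayed at 0 in each comparison of groups, the interaction and the tests among groups, under every scaling, filter, tool and left-out mouse tried, and in the replicate block. Same-numbered samples had correlations of deviations of -0.0776 to 0.101 over 9 pairs and -0.0765 to 0.0387 over 18 pairs. These correlations were low, the labels give no pairing beyond the number, and the block left the counts at 0 called. DESeq2 gave no adjusted p for Ttr, Folr1 and Kl in the pre-treatment experiment, so its 0 there covers 3 genes. The mean FPKM filter kept 2 of the 6 genes in the pre-treatment and 5 in the delayed treatment experiment. Relations with Ttr in the delayed treatment experiment numbered 5 of 5 under every setting, the replicate block included, and 0 of 5 over the 8 low pre-treatment mice. Of the log2 fold changes, 632 values under other settings kept their sign and 22 turned, each when 1 mouse was left out; the cause was not tested beyond the mouse left out. Leaving out each mouse in turn, MPTP against control (pre-treatment) ranged from -0.34 to 7.15 for Ttr, -0.48 to 3.61 for Folr1, -0.21 to 2.85 for Kl, -0.0345 to 2.43 for Aqp1 and -0.30 to 3.24 for Slc4a5. Irisin before MPTP against MPTP ranged from -6.80 to 1.04 for Ttr, -3.05 to 1.05 for Folr1, -2.85 to 0.21 for Kl, -2.17 to 0.14 for Clic6 and -2.60 to 0.45 for Slc4a5. In both comparisons the sign turned without MPTP replicate 2. MPTP against control in the delayed treatment experiment ranged from -4.30 to -0.34 for Ttr and -3.30 to -0.30 for Folr1, irisin alone against control from -4.26 to -2.57 for Ttr, and the interaction from 2.38 to 6.89 for Ttr. The number of the 6 genes at an unadjusted p under 0.05 in edgeR then ranged from 0 to 4, 0 to 5 and 0 to 6. For MPTP against control and the interaction, the high end came without MPTP replicate 3, against 7.02% and 4.93% of all genes. That mouse was picked by its level, so these counts are no test of the groups. For irisin alone the share over all genes was not taken in these fits, so its counts are no result about the 6 genes. Irisin after MPTP against MPTP ranged from -0.59 to 3.93 for Ttr, -0.76 to 2.69 for Folr1, -0.50 to 1.81 for Kl, -0.32 to 2.12 for Clic6, -0.31 to 1.10 for Aqp1 and -0.38 to 1.84 for Slc4a5, with all 6 below 0 without MPTP and irisin replicate 2. Over the 8 low pre-treatment mice, where no r passed, r with Ttr turned sign to -0.131 for Aqp1 on log2(FPKM + 1), and to -0.122 for Folr1 and -0.105 for Clic6 with deviations from group means. As Spearman's rho it was -0.0238 for Folr1 and for Clic6 and 0.0714 for Slc4a5. Without the 2 mice farthest from the median it was -0.400 for Folr1, -0.311 for Clic6, -0.437 for Aqp1 and 0.710 for Slc4a5. Leaving out each mouse, it ranged from -0.485 to 0.329 for Folr1, -0.264 to 0.221 for Clic6, -0.549 to 0.276 for Aqp1 and -0.365 to 0.269 for Slc4a5.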

Other observations

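Besides the choroid plexus genes named above, 2 genes outside the list were at least 10-fold above the next mouse in MPTP replicate 2 of the pre-treatment experiment, both named after their values were seen. Prr32, a gene named for its proline-rich protein, stood at 2.96 FPKM in that mouse against 0 to 0.119 FPKM in the other 8 mice, and at 1.14 to 2.60 FPKM in the 4 high delayed treatment mice against 0.0001 (the value written for a count of 0) to 0.655 FPKM in the other 8. Gmnc, which encodes a regulator of multiciliated cells, stood at 5.10 CPM in MPTP replicate 2 against at most 0.398 in the other 8 mice. Of the list, Tmem72 stood at 27.1 CPM against at most 1.28, Kcne2 at 17.2 against at most 0.546, F5, coagulation factor V, at 11.7 against at most 1.01, Cldn2, a claudin of leaky epithelia, at 7.85 against at most 0.761, and Mfrp at 6.12 against at most 0.452. Not all genes of the list behaved so, since Otx2, a homeodomain factor of the choroid plexus, stood at 2.94 FPKM in MPTP replicate 2, within the 1.29 to 4.24 FPKM of the other 8 mice.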
